A study of Mus musculus with 2 samples.

Results

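Interferon gamma, its receptor and the first steps of its signalling were followed through the cell clusters of a mouse tumour. The 7 genes are Ifng, Ifngr1, Ifngr2, Jak1, Jak2, Irf1 and Socs1. They were chosen by name for their place in the pathway, with earlier results of these data known, and all 7 were found among the 18685 genes of the expression matrix.

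Tumours of Hep1-6, a mouse hepatoma line, were grown as percutaneous grafts in male wild type C57BL/6 mice 6 to 8 weeks old. The mice received intraperitoneal IgG as the control or an antibody against SIGLEC15, a sialic acid-binding receptor. There was 1 library per group, and the design text gives 3 mice per group without saying how their cells were combined. Cells enriched with CD45 beads were mixed with unsorted cells before loading, so the number of cells in a cluster reflects that mixing. The 105 complete genes of the IgG matrix used here include 0 of the 7 genes, so their levels come from the antibody library alone and say nothing of an effect of the antibody. That library held 5482 cells in 30 clusters named by the authors, with 74168827 UMIs and from 553 to 46558 UMIs per cell. The libraries shared 11 cell barcodes.

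Interferon gamma is a cytokine that activated T cells and natural killer cells secrete. It binds a receptor built of the ligand-binding chain IFNGR1 and the signalling chain IFNGR2, which carry the kinases JAK1 and JAK2. The signal ends at gamma-activated sequences in promoters such as that of Irf1. IRF1 is a transcription factor that turns on a later set of genes, and SOCS1 binds JAK kinases and shuts the signal down. In tumours the pathway is known for raising antigen presentation, the chemokines that attract T cells, and PD-L1, the ligand of PD-1 encoded by Cd274.

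The upstream sequences of Irf1 and Socs1 are shown because these genes had the most alike levels across clusters of all pairs among the 7 genes. They are the 250 bases before the RefSeq start on GRCm38.p6, Irf1 at chr11:53769764-53770013 on the plus strand and Socs1 at chr16:10785537-10785786 on the minus strand. Capitals mark the letters that matched a searched motif.
Irf1: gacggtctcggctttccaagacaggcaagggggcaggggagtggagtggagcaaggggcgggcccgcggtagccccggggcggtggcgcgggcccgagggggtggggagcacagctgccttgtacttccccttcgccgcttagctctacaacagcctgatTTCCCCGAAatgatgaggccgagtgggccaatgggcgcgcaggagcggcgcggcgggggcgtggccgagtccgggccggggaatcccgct
Socs1: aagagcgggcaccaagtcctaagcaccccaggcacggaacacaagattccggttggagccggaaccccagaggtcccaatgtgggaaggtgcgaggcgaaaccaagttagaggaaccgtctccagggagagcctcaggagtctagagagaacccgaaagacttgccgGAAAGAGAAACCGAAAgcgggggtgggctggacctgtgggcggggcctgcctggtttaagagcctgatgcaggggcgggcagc
The motifs were TTCNNNGAA, the gamma-activated sequence, and an element bound by interferon regulatory factors, spelled GAAA, any 2 bases, GAAA, each searched on both strands. Irf1 held the letters TTCCCCGAA from 90 bases before its start. Socs1 held 2 overlapping matches of the other motif, from 83 and 77 bases before its start. Of 32851 promoters of 300 bases in RefSeq, 8.30% held the first motif and 3.44% the second. A second Irf1 promoter and those of Ifngr1, Ifngr2, Jak1 and Jak2 held neither, and that of Ifng held TTCAGAGAA from 249 bases before its start. A match is a description of letters, and binding was not measured.

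Levels are UMIs of a gene summed over the cells of a cluster and divided by the cluster's total UMIs, as counts per 1000000 (CPM). With 1 library no difference has a replicate check, and no test was made. All intervals are exact 95% intervals that cover counting error only. The authors' clusters were drawn from the expression of these same cells, so differences between clusters are descriptions. Fixed markers fitted most names: T cell markers summed to 2010 CPM or more in the 4 T cell clusters and to 10 CPM or less in the 11 tumour clusters. MDSC_1 to MDSC_4, named for myeloid-derived suppressor cells, held neutrophil markers at 22642 CPM or more. MDSC_5 held 987 CPM of them, 1727 CPM of macrophage markers and 5973 CPM of hepatoma markers, and is kept apart from MDSC_1 to MDSC_4. The immune clusters as a whole are the T cell, macrophage, DC and B clusters and MDSC_1 to MDSC_4, with MDSC_5 included. In the cluster named DC, neutrophil markers summed to 3956 CPM, monocyte markers to 2407 CPM, macrophage markers to 1892 CPM and dendritic cell markers to 116 CPM. The median cell held 2808.5 UMIs in the T cell clusters, 1047 in MDSC_1 to MDSC_4, 6946.5 in the macrophage clusters and 20428 in the tumour clusters. Mitochondrial and ribosomal protein genes took 9.50% of UMIs in MDSC_1 to MDSC_4 and 37.3% in tumour clusters, which moves every CPM ratio between these classes.

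**Figure D1:**
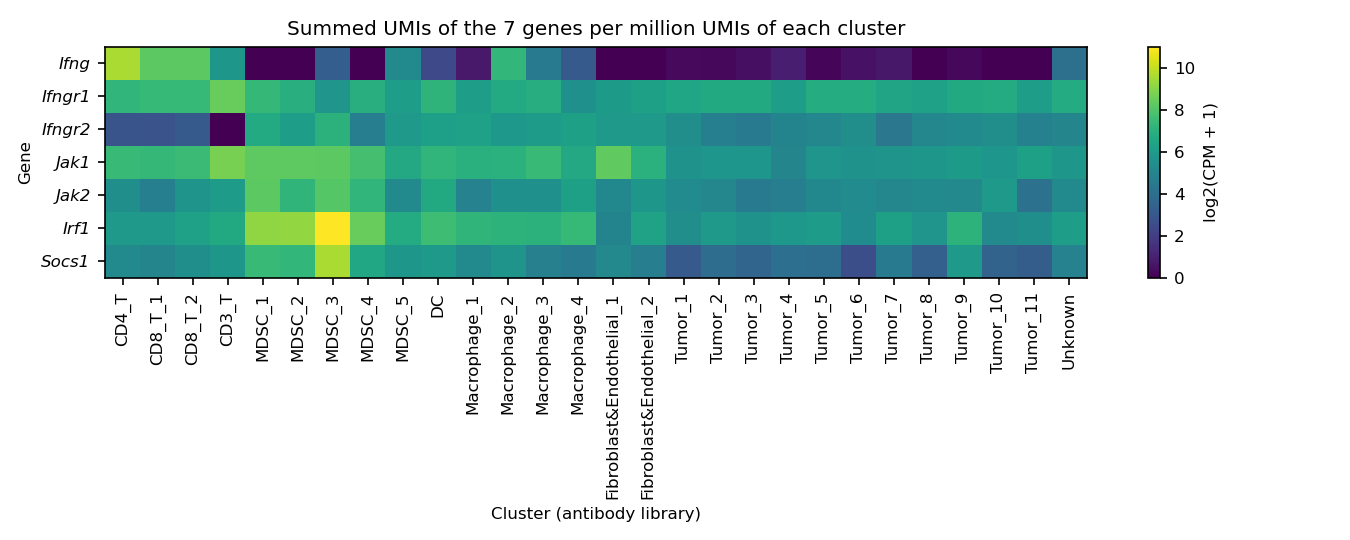
Levels of the 7 genes (rows) in the 28 clusters with at least 30 cells (columns), as log2 of CPM plus 1 in the antibody library. Ifng is brightest in CD4_T, Irf1 and Socs1 in MDSC_3, and Ifngr2 is dark in the 4 T cell clusters.

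Each gene had its own order of clusters. Ifng was highest in CD4_T, Ifngr1 and Jak1 in CD3_T, Jak2 in MDSC_1, and Ifngr2, Irf1 and Socs1 in MDSC_3. In each order of 28 clusters, neighbours mostly did not differ beyond counting error. Of 27 neighbouring pairs, the interval of the ratio excluded 1 for 3 pairs with Ifng, 3 with Irf1, 2 with Ifngr1, 2 with Jak1 and 1 each with Ifngr2, Jak2 and Socs1. The last clusters in the order of Ifng held 0 of its UMIs, so pairs among them had no ratio.

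Ifng, the ligand, was counted 1061 times in 297 cells, and T cell clusters held 66.6% of its UMIs (63.7 to 69.5%). The cluster CD4_T held 126 UMIs in 25 of 47 cells, or 779 CPM (649 to 927). CD8_T_1 held 452 UMIs in 109 of 208 cells, or 302 CPM (275 to 332), and CD8_T_2 held 117 UMIs in 52 of 127 cells, or 298 CPM (247 to 358). The CD8 clusters did not differ beyond counting error, with a ratio of 1.01 (0.825 to 1.25). CD4_T stood 2.57-fold above CD8_T_1 (2.096 to 3.14), and 2.12-fold (1.68 to 2.66) when the cell with the most Ifng UMIs was left out of each.

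In CD3_T the level was 56.2 CPM (29.1 to 98.2), from 12 UMIs in 12 of 138 cells. CD8_T_1 stood 5.38-fold above it (3.05 to 10.5). Natural killer cell markers summed to 773 CPM in CD3_T, against 74.1 to 232 CPM in the other T cell clusters. Cells of CD3_T were split by Ncr1, Klrb1c, Klre1 and Klra8, without Eomes, which the sums above include. The 25 cells with a UMI of these markers and no Cd3 UMI held 67.0 CPM of Ifng (13.8 to 196). The 82 cells with a Cd3 UMI and no such marker held 48.3 CPM (17.7 to 105). These intervals overlap, so no difference was detectable at this depth.

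The ligand was unevenly spread over cells. Of the 297 cells that held it, 148 held 1 UMI, while 22 cells with at least 10 UMIs held 41.9% of all Ifng UMIs. In CD4_T 4 such cells held 52.4% of the cluster's Ifng, and in CD8_T_1 10 cells held 41.4%. The other 8 lay in Macrophage_2 and held 70.1% of its Ifng. CD8_T_2 and CD3_T had 0 such cells, with at most 9 and 1 UMIs in a cell.

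Shares of cells depend on depth, so each cell was also thinned to 1000 UMIs and shallower cells were left out. After thinning, an Ifng UMI was expected in 32.2% of CD4_T (19.1 to 47.1%), 19.0% of CD8_T_1 (13.8 to 25.0%), 20.3% of CD8_T_2 and 6.15% of CD3_T. The unthinned shares were 53.2, 52.4, 40.9 and 8.70%. By shares of cells CD4_T and CD8_T_1 thus overlapped, whereas their levels did not. In tumour cells, which should lack the gene, the thinned share was 0.0267% and the unthinned share 0.498%, at a median depth of 20428 UMIs.

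Outside T cell clusters Ifng was high in Macrophage_2, where it nearly always lay in cells that also held T cell transcripts. Macrophage_2 held 274 Ifng UMIs in 49 of 158 cells, or 157 CPM (139 to 176), and 1 of its cells held 45, the most of any cell. Of its 158 cells, 90 held a UMI of Cd3d, Cd3e or Cd3g, which encode chains of the T cell receptor complex, and these cells held 272 of the 274 Ifng UMIs. Their Ifng level was 250 CPM (222 to 282), against 3.01 CPM (0.365 to 10.9) in the 68 cells without a Cd3 UMI. The cells with Cd3 also held C1qa, C1qb and C1qc, complement genes of macrophages, at 4444 CPM, against 6731 CPM in those without and 87.8 CPM in CD8_T_1 cells with a Cd3 UMI. Their median depth was 11723 UMIs, against 9215.

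In some other clusters Ifng also lay in cells with a Cd3 UMI. All 13 Ifng UMIs of Macrophage_3, all 15 of MDSC_5 and all 27 of the cluster named Unknown lay in cells with a Cd3 UMI. In Macrophage_1, the cluster with the most C1q transcripts, 1 Ifng UMI was counted in 178 cells. Outside the T cell clusters, 334 of 354 Ifng UMIs lay in the 296 cells with a Cd3 UMI. Without those 296 cells the T cell clusters held 97.2% of Ifng, a share that leaving out cells of other clusters could only raise. Barcodes with transcripts of both lineages may hold more than 1 cell, and that was not tested. The doublet caller scrublet marked 3 of 5482 cells, those with a score above 0.548. Median scores with and without a Cd3 UMI were 0.074 and 0.038 in Macrophage_2, 0.319 and 0.157 in Unknown, and 0.285 and 0.163 in MDSC_5. They were closer in Macrophage_3, at 0.055 and 0.049. In Macrophage_1 they were 0.038 and 0.024, and in Macrophage_4 0.109 and 0.048. The order was the other way in CD8_T_1, at 0.016 and 0.037, and in CD3_T, at 0.011 and 0.020.

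**Figure D2:**
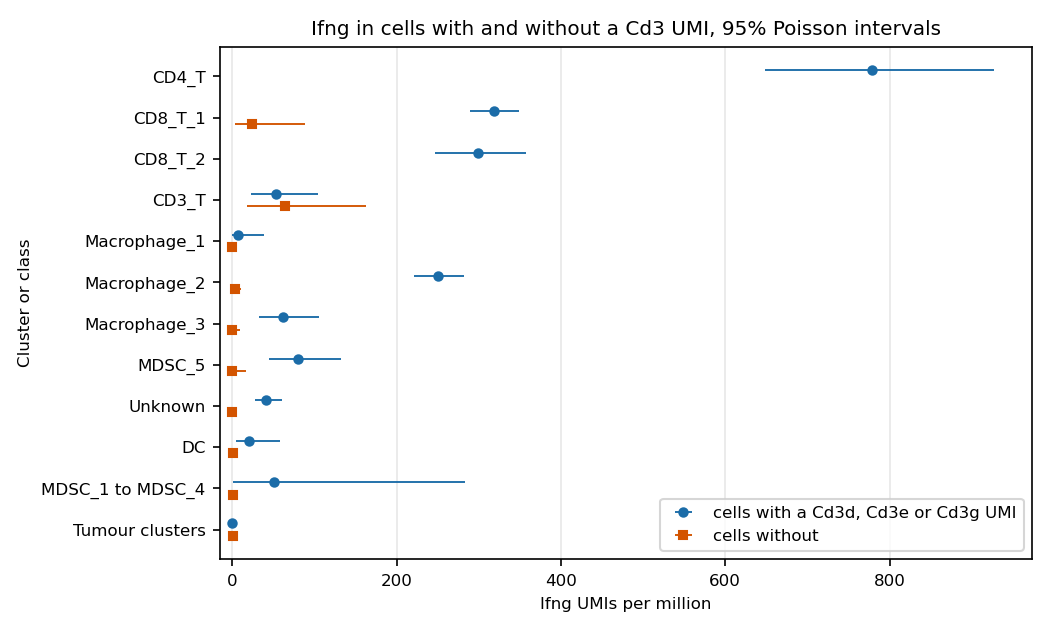
Ifng level (horizontal axis, CPM) in cells with (circles) and without (squares) a UMI of Cd3d, Cd3e or Cd3g, for 12 clusters or classes, with 95% Poisson intervals. All cells of CD4_T and CD8_T_2 held a Cd3 UMI, and Macrophage_2 reads 250 CPM with and 3.01 CPM without one.

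The tumour, neutrophil-like and stromal clusters had almost no Ifng. The 11 tumour clusters together held 16 UMIs in 3213 cells, or 0.256 CPM (0.146 to 0.416), and 0 of those UMIs lay in cells with a Cd3 UMI. MDSC_1, MDSC_2 and MDSC_4 held 0 and MDSC_3 held 2. The fibroblast and endothelial clusters held 0 of 1446256 UMIs. The immune clusters as a whole stood 471-fold above the tumour clusters (289 to 828).

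Transcripts of the receptor chains were found in every class. T cell clusters held those of the ligand-binding chain with very few of the signalling chain. Ifngr1 was highest in CD3_T, with 74 UMIs and 347 CPM (272 to 435). It stood at 166 CPM in CD8_T_2, 163 CPM in CD8_T_1, 161 CPM in MDSC_1, 148 CPM in CD4_T and 143 CPM in DC. CD3_T was 2.09-fold above CD8_T_2 (1.48 to 2.96), whereas the next 5 clusters had neighbouring ratios whose intervals included 1. The 11 tumour clusters lay between 69.5 CPM in Tumor_11 and 113 CPM in Tumor_6, with a median of 101 CPM. The lowest levels were 53.1 CPM in MDSC_3, from 12 UMIs, and 45.3 CPM in Macrophage_4, from 6.

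Immune clusters as a whole had 122 CPM of Ifngr1 and tumour clusters 97.9 CPM, a ratio of 1.24 (1.16 to 1.33). Without mitochondrial and ribosomal protein genes in the totals the ratio was 1.04 (0.969 to 1.11), an interval that includes 1. Between MDSC_1 to MDSC_4 and tumour clusters the direction turned with that scaling, from 1.17 (0.946 to 1.43) to 0.810 (0.656 to 0.989).

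Ifngr2 gave 13 UMIs in the 520 cells of the T cell clusters, of which 49 held no Cd3 UMI. CD3_T held 0 in 138 cells, which allows up to 14.1 CPM and up to 2.17% of cells with an Ifngr2 UMI. This limits cells with a UMI and not cells that express the gene. CD4_T held 1, CD8_T_2 held 3 and CD8_T_1 held 9. Together the T cell clusters had 5.75 CPM (3.06 to 9.83), 0.178 of the tumour level (0.0945 to 0.305) and 0.0869 of the macrophage level (0.0456 to 0.151). After thinning, an Ifngr2 UMI was expected in 0.477% of cells in T cell clusters, 3.22% of tumour cells, 6.996% of macrophages and 9.40% of MDSC_1 to MDSC_4. The unthinned shares were 2.50, 42.0, 34.4 and 9.34%, at the median depths given above, and tumour cells were the deepest.

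Ifngr2 was highest in MDSC_3, at 133 CPM (89.6 to 190) from 30 UMIs, and in MDSC_1, at 106 CPM (70.1 to 155). These did not differ beyond counting error, with a ratio of 1.25 (0.718 to 2.18). The 4 macrophage clusters lay between 56.6 and 76.6 CPM, the fibroblast and endothelial clusters at 59.6 and 58.9 CPM, and the tumour clusters between 19.6 CPM in Tumor_7 and 42.7 CPM in Tumor_10.

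The balance of the transcripts of the receptor chains therefore varied between classes. It is given as the share of Ifngr2 among UMIs of both chains, and is compared between clusters only, since capture can differ between the genes. Ifngr2 made up 3.10% of receptor UMIs in T cell clusters (1.66 to 5.23%), 24.8% in tumour clusters (23.9 to 25.8%), 42.0% in macrophages (38.1 to 46.0%) and 47.8% in fibroblast and endothelial clusters (40.3 to 55.3%). Among neutrophil-like clusters it was 71.4% in MDSC_3 (55.4 to 84.3%) and 35.1% in MDSC_1, MDSC_2 and MDSC_4 together (27.0 to 43.9%). These intervals do not overlap. Ifngr1 was lower in MDSC_3 than in the other 3 clusters, with a ratio of 0.389 (0.193 to 0.716), and Ifngr2 was higher, with a ratio of 1.80 (1.10 to 2.91).

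**Figure D3:**
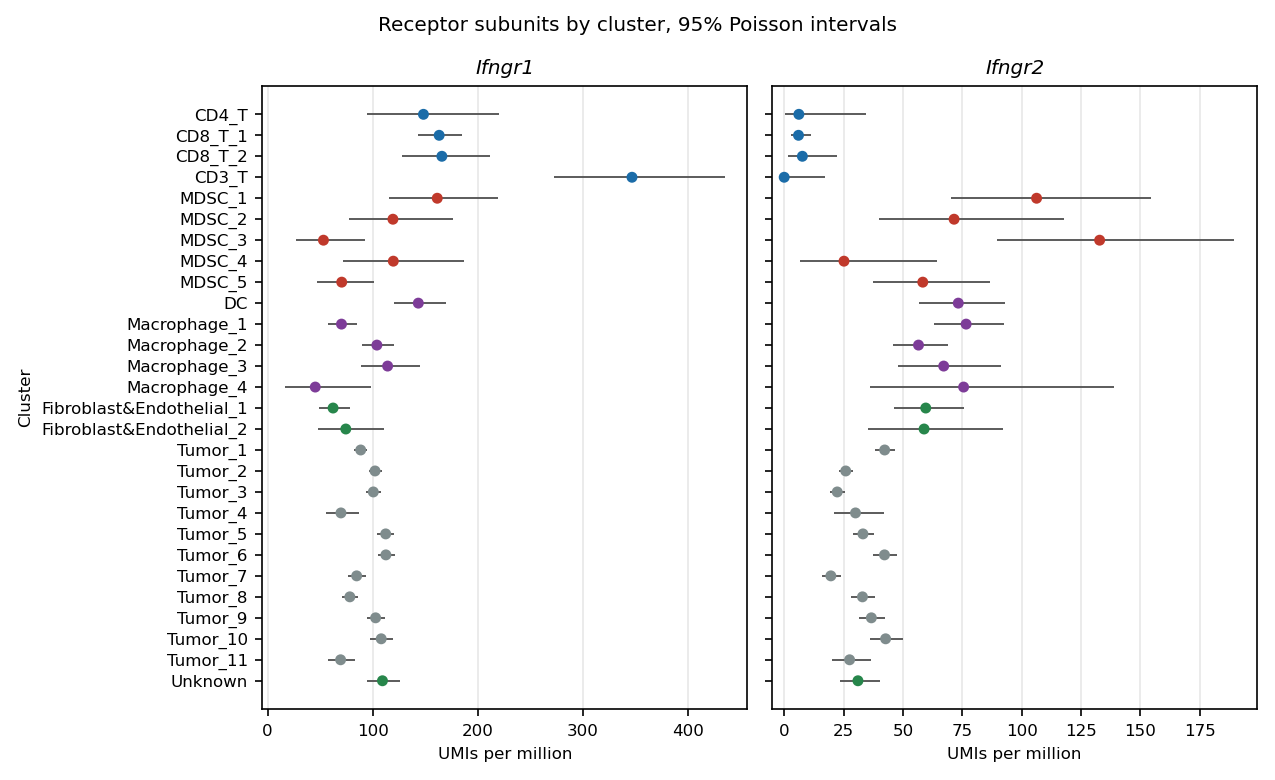
Ifngr1 (left) and Ifngr2 (right) levels (horizontal axes, CPM) in 28 clusters, with 95% Poisson intervals and points coloured by class. The T cell clusters lie at 148 CPM or more for Ifngr1 and at 7.65 CPM or less for Ifngr2.

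Of the receptor kinases, Jak1 is shared by many cytokine receptors and Jak2 serves the IFNGR2 chain and receptors such as those for GM-CSF. Jak1 was highest in CD3_T, at 426 CPM (343 to 524), then in Fibroblast&Endothelial_1 at 316 CPM and in MDSC_1, MDSC_2 and MDSC_3 at 307, 305 and 297 CPM. CD3_T was 2.58-fold above the other T cell clusters together (2.03 to 3.27). Fibroblast&Endothelial_1, where fibroblast markers summed to 34501 CPM, was 2.43-fold above Fibroblast&Endothelial_2 (1.76 to 3.42). The tumour clusters were low for Jak1, between 30.9 CPM in Tumor_4 and 75.4 CPM in Tumor_11. The ratio of immune to tumour clusters was 3.07 (2.88 to 3.27).

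Jak2 was highest in the neutrophil-like clusters. MDSC_1 had 76 UMIs and 299 CPM (236 to 375), MDSC_3 had 275 CPM (211 to 352), and MDSC_4 and MDSC_2 had 151 and 148 CPM. MDSC_1 was 2.02-fold above MDSC_2 (1.32 to 3.18). MDSC_1 to MDSC_4 together were 6.59-fold above the tumour clusters (5.65 to 7.63) and 6.43-fold above the T cell clusters (4.93 to 8.46). Without mitochondrial and ribosomal protein genes the first ratio was 4.56 (3.92 to 5.29).

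T cell, macrophage and tumour clusters had similar levels of Jak2, at 35.4, 39.7 and 34.5 CPM. Each of the 3 ratios between them had an interval that included 1 and turned direction with the scaling. Among tumour clusters Tumor_10 was highest, at 58.7 CPM (50.9 to 67.4), 1.498-fold above Tumor_6, the next of them (1.24 to 1.81). Tumor_11 was lowest, at 16.2 CPM.

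Irf1, the transcription factor that interferon gamma induces, marked the neutrophil-like clusters and above all MDSC_3. MDSC_3 held 463 UMIs in 138 of 180 cells, or 2050 CPM (1868 to 2246). MDSC_2 had 596 CPM, MDSC_1 had 575 CPM and MDSC_4 had 353 CPM. MDSC_3 was 3.90-fold above these 3 clusters together (3.38 to 4.51). After thinning, an Irf1 UMI was expected in 73.7% of MDSC_3 and 29.6% of the other 3, with 74 of 180 and 228 of 527 cells too shallow to enter. The unthinned shares were 76.7 and 31.7%.

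The other classes had less Irf1. DC stood at 192 CPM (165 to 222), and the 4 macrophage clusters lay between 133 and 166 CPM. T cell clusters lay between 59.5 CPM in CD8_T_1 and 103 CPM in CD3_T. Together they had 0.0717 of the level of MDSC_1 to MDSC_4 (0.0598 to 0.0854). Among tumour clusters Tumor_9 stood apart at 136 CPM (126 to 147), and the other 10 lay between 36.0 and 74.9 CPM. Tumor_9 was 2.60-fold above them together (2.39 to 2.82). A transcript named Gm17334 is annotated on the strand opposite Irf1, and whether the counting used strand is not given in the sources used here.

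Socs1, the inhibitor, was also highest in MDSC_3, and its order differed from that of Irf1 further down. MDSC_3 held 177 UMIs in 82 of 180 cells, or 784 CPM (673 to 908), with 177 CPM in MDSC_1, 153 CPM in MDSC_2 and 94.4 CPM in MDSC_4. MDSC_3 was 5.30-fold above these 3 together (4.10 to 6.90). Tumor_9 stood at 59.1 CPM (52.6 to 66.1), at a similar level to DC at 58.2 CPM, while the other 10 tumour clusters lay between 5.34 and 22.1 CPM. Tumor_9 was 5.09-fold above them together (4.43 to 5.84) and 2.67-fold above Tumor_7, the next of them (2.14 to 3.36).

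Neither MDSC_3 nor Tumor_9 differed as much in the kinases. Tumor_9 had 63.3 CPM of Jak1 against 52.2 CPM in the other tumour clusters, a ratio of 1.21 (1.08 to 1.36), and 1.03 for Jak2 (0.876 to 1.19). Its ratios for Ifngr1 and Ifngr2 were 1.05 (0.963 to 1.15) and 1.15 (0.984 to 1.34). MDSC_3 had ratios to MDSC_1, MDSC_2 and MDSC_4 together of 1.05 for Jak1 (0.780 to 1.40) and 1.30 for Jak2 (0.948 to 1.78). Taken singly, its Jak2 ratio was 1.86 to MDSC_2 (1.19 to 2.96), 1.82 to MDSC_4 (1.12 to 3.04) and 0.918 to MDSC_1 (0.645 to 1.30).

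**Figure D4:**
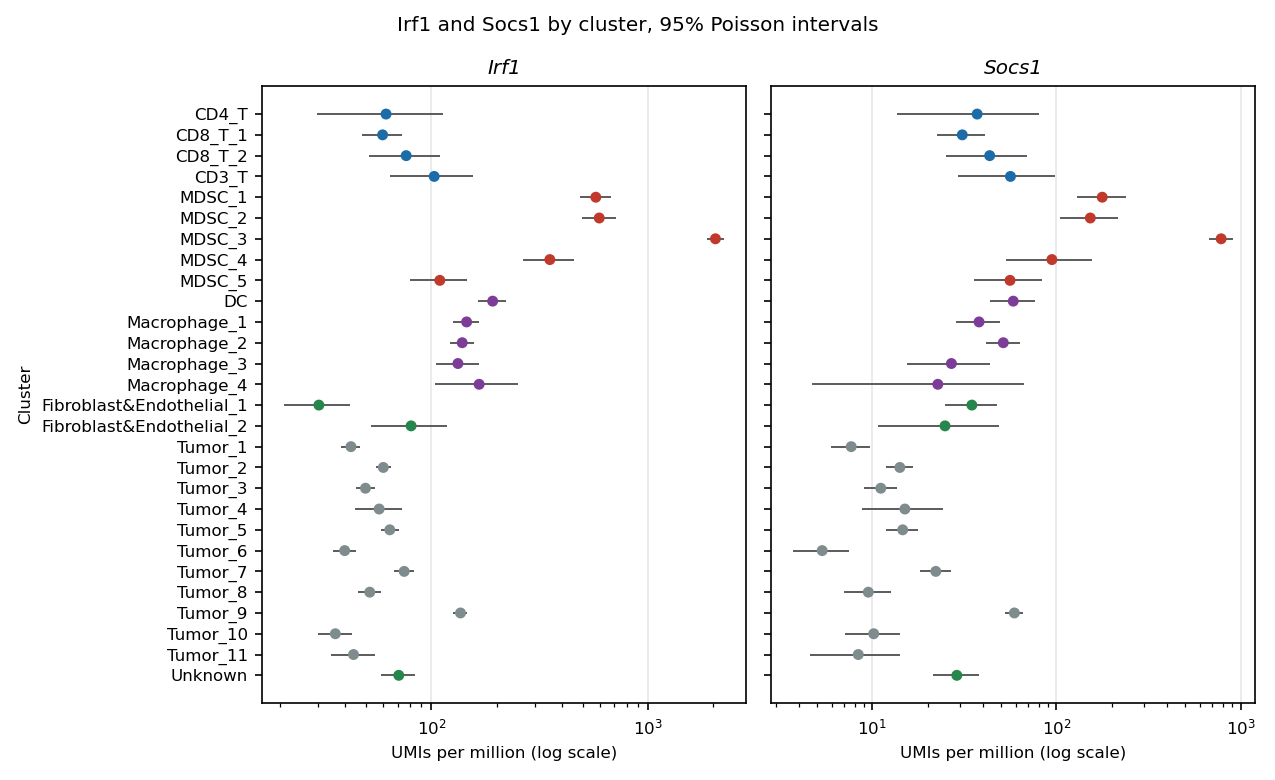
Irf1 (left) and Socs1 (right) levels (horizontal axes, CPM, log scale) in 28 clusters, with 95% Poisson intervals and points coloured by class. MDSC_3 is the highest cluster in both panels, and Tumor_9 is the highest tumour cluster in both.

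In tumour, neutrophil-like and macrophage clusters Socs1 was also higher in the cells with the most Irf1 than in those with none. The cells of the 10 tumour clusters other than Tumor_9 were grouped by their Irf1 UMIs, at 0, 1, 2 and 3 or more. Their Socs1 levels were 5.12, 7.06, 11.5 and 40.7 CPM in that order, over 1566, 732, 306 and 361 cells. Jak1 in the same groups was 50.6, 53.1, 57.1 and 51.8 CPM, and Ifngr1 was 94.4, 98.2, 102 and 102 CPM. Median depths were 18492, 21451, 21800 and 23875 UMIs.

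Values of 2 interferon-induced genes, chosen after their values were seen, are given for the same tumour cells. Gbp2, an interferon-induced GTPase, went from 32.4 CPM in cells with 0 Irf1 UMIs to 115 CPM in those with 3 or more. Iigp1, another such GTPase, went from 103 to 372 CPM. Ifngr2 stood at 34.0 and 31.9 CPM and Jak2 at 36.2 and 31.8 CPM in the same cells. Neutrophil markers summed to 13.5 and 10.6 CPM and macrophage markers to 10.3 and 10.9 CPM. In MDSC_3 Gbp2 stood at 2415, 4193, 2627 and 3277 CPM with 0, 1, 2 and 3 or more Irf1 UMIs. In MDSC_1, MDSC_2 and MDSC_4 together it stood at 424, 377, 410 and 587 CPM. Between cells with 0 and with 3 or more, Iigp1 went from 22.2 to 39.1 CPM in MDSC_3 and from 26.6 to 32.6 CPM in those clusters. Gbp2 went from 307 to 556 CPM in Tumor_9 and from 199 to 345 CPM in macrophage clusters.

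The same comparison was made in each tumour cluster and in each of MDSC_1 to MDSC_4. Socs1 was higher in cells with 3 or more Irf1 UMIs than in cells with 0 in 11 of 11 tumour clusters, and the interval of the ratio excluded 1 in 9, all but Tumor_8 and Tumor_10. In Tumor_9 the levels were 24.2 and 108 CPM, with 9.90 CPM in cells with 1 Irf1 UMI and 36.8 CPM in those with 2. It was higher in 4 of 4 clusters among MDSC_1 to MDSC_4, with intervals that excluded 1. In MDSC_3 Socs1 went from 266 CPM (137 to 464) to 939 CPM (761 to 1147), and in the other 3 together from 92.0 CPM (65.1 to 126) to 489 CPM (330 to 698). In the macrophage clusters together Socs1 was 23.8 CPM (16.8 to 32.7) in 290 cells with 0 Irf1 UMIs. It was 64.9 CPM (48.5 to 85.1) in 74 cells with 3 or more, with 34.1 and 72.5 CPM between. In T cell clusters Socs1 stood at 33.5 CPM (25.0 to 44.1) in cells with 0 Irf1 UMIs, with 35.9 and 26.5 CPM between. It was 80.8 CPM (34.9 to 159) in those with 3 or more, which were 8 cells with 8 Socs1 UMIs. The T cell intervals overlap. The clusters share 1 library and are not replicates.

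**Figure D5:**
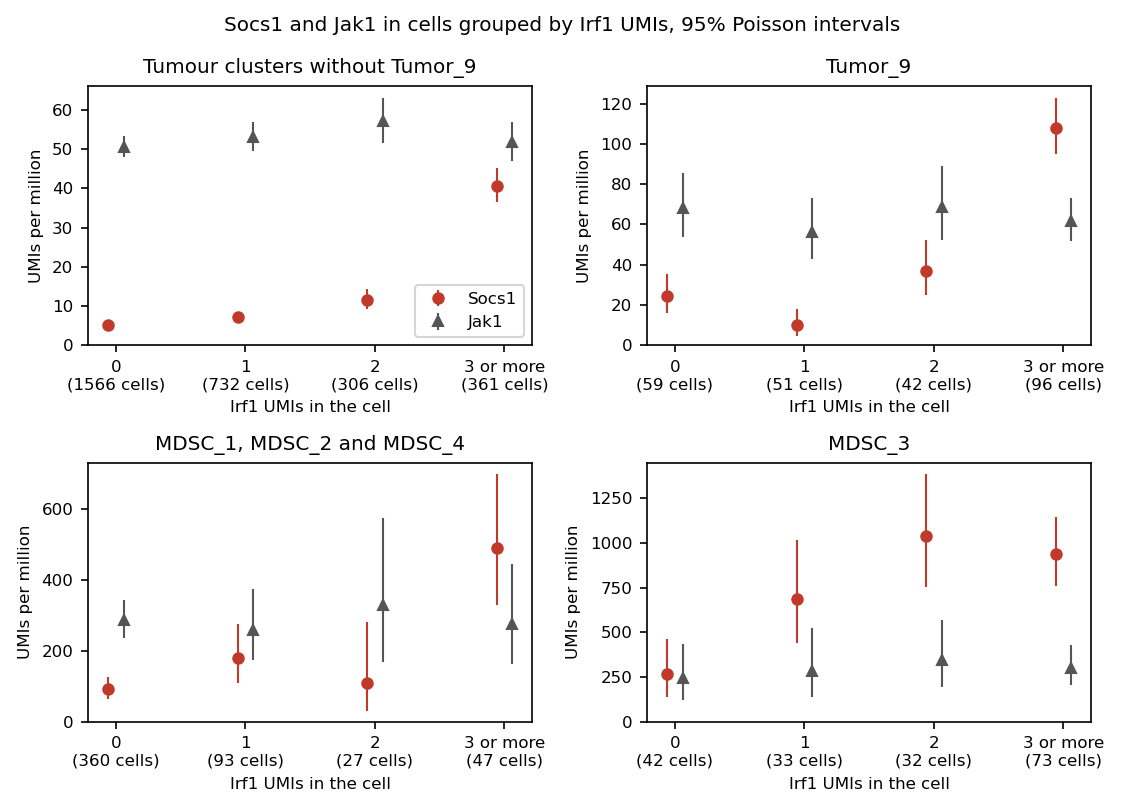
Socs1 (circles) and Jak1 (triangles) levels (vertical axes, CPM) in cells grouped by their Irf1 UMIs (horizontal axes, with the number of cells), with 95% Poisson intervals, in 4 sets of clusters. In the tumour clusters without Tumor_9, Socs1 goes from 5.12 to 40.7 CPM while Jak1 stays between 50.6 and 57.1 CPM.

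The number of the 7 genes past 2-fold in a class is set here beside the share of all genes past it. In MDSC_1 to MDSC_4 against all other cells, 5 of the 7 genes were at least 2-fold higher (Ifngr2, Jak1, Jak2, Irf1 and Socs1), where 18.5% of all 12803 genes tested were. Ifng was at least 2-fold lower there, as 43.8% of genes were. In T cell clusters Ifng and Jak1 were higher, 2 of 7 against 20% of genes, and Ifngr2 was lower, where 27.8% of genes were. In DC 5 of 7 were higher, against 20.6% of genes, and Ifng was lower, where 26.1% of genes were. Macrophage clusters had 2 of 7 higher, Ifng and Jak1, against 23%, and nearly all of that Ifng lay in cells with a Cd3 UMI. None of the 7 was lower there, where 21.7% of genes were. Tumour clusters had 0 higher, against 12.8%, and 4 lower (Ifng, Jak1, Irf1 and Socs1), against 25.3% of genes lower. Since tumour clusters held most of the library's UMIs, the other cells of an immune class were mostly tumour cells.

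Genes that switch Ifng on were higher in T cell clusters and in macrophage clusters. This list holds cytokines, such as interleukin-12 and interleukin-18, with their receptors and transcription factors, and 9 of its 12 genes had at least 50 UMIs. In T cell clusters 7 of the 9 were at least 2-fold higher than in all other cells and 2 were lower, against 20% and 27.8% of all genes. Tbx21, encoding the T-bet factor that drives Ifng, stood at 39.3 CPM against 0.459 CPM. Il18r1, an interleukin-18 receptor chain, stood at 130 against 1.70 CPM, and Stat4, which carries the interleukin-12 signal, at 102 against 1.46 CPM. Eomes, a factor related to T-bet, stood at 50.4 against 0.779 CPM. The lower genes were the cytokines Il15 and Il18 themselves. In macrophage clusters 9 of the 9 were higher and 0 lower, against 23% and 21.7% of all genes. Tbx21 stood there at 5.13 against 1.45 CPM and Stat4 at 13.8 against 4.01 CPM. Of the cells of these clusters 25.0% held a Cd3 UMI, whose part in this count was not tested. In DC 5 were higher and 1 lower, against 20.6% and 26.1% of all genes, and Tbx21 was at 0 there. In macrophage clusters Il18 stood at 30.5 CPM against 1.54 CPM, and in MDSC_1 to MDSC_4 Il15 stood at 82.5 against 3.36 CPM.

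Near the receptor, 10 genes of signalling factors, phosphatases and other inhibitors were tested. In MDSC_1 to MDSC_4 6 were at least 2-fold higher than in all other cells and 1 was lower, against 18.5% and 43.8% of all genes. Cish and Socs3, relatives of Socs1, stood at 125 against 5.86 CPM and at 614 against 48.5 CPM. The phosphatase gene Ptpn6 stood at 509 against 38.0 CPM. In T cell clusters 5 were higher and 2 lower, against 20% and 27.8% of all genes, with Cish at 51.7 CPM against 5.83 CPM.

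Most targets of interferon gamma on the list were higher in the neutrophil-like, macrophage and DC clusters, and 12 of 22 were lower in T cell clusters. Of 22 targets tested, 16 were at least 2-fold higher in MDSC_1 to MDSC_4 and 5 lower, against 18.5% and 43.8% of all genes. The median log2 ratio was 1.85 against -0.73 over all genes. In MDSC_1 to MDSC_4 Cd274 stood at 655 CPM against 12.5 CPM and Gbp5, a GTPase, at 289 against 10.0 CPM. H2-Aa, a class II antigen presentation gene, was lower there. In DC 16 were higher and 1 lower, against 20.6% and 26.1% of all genes. The median log2 ratio in DC was 1.68 against -0.13 over all genes. In macrophage clusters 16 were higher and 2 lower, against 23% and 21.7% of all genes, with a median of 1.74 against 0.05. H2-Aa led at 4096 CPM against 114 CPM, and Cxcl9, a chemokine for T cells, stood at 1310 against 69.1 CPM. Irf1 and Socs1 were just under 2-fold higher there, with ratios of 1.96 (1.79 to 2.14) and 1.96 (1.66 to 2.31). In T cell clusters 2 were higher, the immunoproteasome genes Psmb8 and Psmb9, and 12 were lower, against 20% and 27.8% of all genes. The median log2 ratio there was -1.39 against -0.02 over all genes. In tumour clusters 1 was higher, Ido1, which breaks down tryptophan, at 10.4 CPM against 1.97 CPM, and 15 were lower. Of all genes, 12.8% were higher and 25.3% lower there.

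Within the tumour, most targets were higher in Tumor_9. Among genes with at least 50 UMIs in the tumour clusters, 20 of 21 targets were at least 2-fold higher in Tumor_9 than in the other 10 clusters, where 2.54% of 11367 genes were. Of the 7 genes, 6 were tested and 2 were higher, Irf1 and Socs1, while 0 were lower, where 2.75% of genes were. Gbp5 stood at 29.7 against 1.85 CPM, Cxcl9 at 279 against 19.9 CPM, Cxcl10 at 472 against 38.1 CPM and Gbp2 at 415 against 51.0 CPM. B2m, the light chain of class I molecules, was within 2-fold, with a ratio of 1.70. Ciita, the activator of class II genes, stood at 19.6 against 3.03 CPM. T cell markers summed to 1.75 CPM in Tumor_9, with Cd4 at 0, and macrophage markers to 8.35 CPM, with Adgre1 at 0. The clusters were drawn from these genes among others, so this count is a description of the cluster.

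Among neutrophil-like clusters most targets were higher in MDSC_3. Of 18 tested there, 14 were at least 2-fold higher than in MDSC_1, MDSC_2 and MDSC_4, where 5.47% of 2119 genes were, and 0 were lower. Of the 7 genes, 6 were tested, Irf1 and Socs1 were higher, and Ifngr1 was lower, where 3.63% of genes were. Cxcl10 stood at 2542 against 125 CPM, Gbp5 at 877 against 75.5 CPM and Gbp2 at 3122 against 431 CPM. Irf7, a factor of the type I interferon response, stood at 638 against 170 CPM. Type I interferons induce many of the same genes, so these counts do not tell the interferons apart.

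Jak1 and Jak2 also serve other receptors, and 12 genes of those receptors and of the related kinases were tested. In macrophage clusters 10 were at least 2-fold higher and 0 lower, against 23% and 21.7% of all genes, and in DC 9 and 0, against 20.6% and 26.1%. In MDSC_1 to MDSC_4 7 were higher and 2 lower, against 18.5% and 43.8%. There Csf2rb, the shared chain of the GM-CSF receptor, stood at 463 CPM against 13.3 CPM, Il10ra at 118 against 7.28 CPM and Il4ra at 180 against 20.7 CPM. In T cell clusters 5 were higher, led by Il2rg, the shared chain of the interleukin-2 receptor family, at 154 against 7.59 CPM, and 3 were lower, against 20% and 27.8%. In the fibroblast and endothelial clusters, where 1 of the 7 genes (Jak1) was higher against 19.2% of genes and 1 (Ifng) lower against 20%, Il6st, the shared chain of the interleukin-6 family, stood at 163 against 14.9 CPM.

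The genes whose levels were most like each of the 7 were found over the 26 clusters with at least 50 cells, by Pearson's r of log2 of CPM plus 20. CD4_T, with 47 cells, was not among them. The clusters share a library and differ in depth, so r is a description. For Ifng the 4 closest genes were Tnfrsf4, encoding the costimulatory receptor OX40 (r = 0.99), Pdcd1, encoding PD-1 (0.98), Nrgn (0.98) and Sh2d2a, an adaptor of T cells (0.97). For Irf1 they were N4bp1 (0.95), Rsad2, an antiviral gene (0.94), Pde4b (0.94) and Socs1 (0.94). For Socs1 they were Irf1, Ggct, Parp10 and Trim12a, all at 0.94.

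The receptor chains and kinases were closest to other sets of genes. For Ifngr1 these were Pdcd7 (0.85), Zcchc4, Fam117a and Fam102a, and for Ifngr2 the proton pump gene Atp6v0a1 (0.88), Rab31, Cst3 and the lysosomal gene Lamp2. For Jak1 they were Gm12840 (0.94), Emb, Pbxip1 and Tprgl, and for Jak2 Ppp1r15a (0.94), Vasp, Resf1 and Cd80. Among the 7 genes, r was 0.88 for Irf1 with Jak2, -0.54 for Ifngr1 with Ifngr2 and -0.04 for Ifng with Irf1.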

How the data were processed

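Reads of 10x Genomics 3' v2 single-cell libraries went through Cell Ranger 2.1.1, as listed in the submitters' processing notes. Genome build, cell filters and clustering method: not given in the sources used here. Per the tests run on them, the deposited values hold the natural log of 1 plus a cell's UMI count of the gene scaled to a total of 10000. UMI counts were recovered from these values. Each was whole within 0.001, and in 5482 of 5482 cells their sum matched the depth found. For the IgG library 105 genes in 5765 cells were complete. Versions were Python 3.11.15, pandas 2.3.3, numpy 2.4.6, scipy 1.17.1, scanpy 1.11.5 and, for plots, matplotlib 3.10.9.

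Cell clusters and names are the authors' deposited annotation. UMIs were summed per cluster and scaled to CPM, with exact Poisson intervals, exact conditional intervals for ratios and Clopper-Pearson intervals for shares, all at 95%. The limit that a count of 0 allows is 3 counts. Thinned shares sum the chance, over cells, that at least 1 UMI is kept. Their intervals are those of that sum rounded to a whole number of cells, and so are approximate. Genes with at least 50 UMIs in the cells compared were counted past 2-fold, with a prior count of 0.5. The 7 genes and the pathway lists were chosen with earlier results of these data known. Named from each list were up to 4 genes per class with the largest ratio, and others named in the text were chosen after their values were seen. The closest genes were the 4 with the highest r among genes with at least 200 UMIs. Scrublet marked 0.0547% of cells, and its calls were not used to remove cells. Sequences are RefSeq's on GRCm38.p6. The steps were tested on simulated data. 1 gene of the pathway lists is not reported here.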

Additional observations from a re-analysis of the deposited data

How the results depend on the processing

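No paired analysis was possible because there was 1 library per group. The alternative without predicted doublets was not run, since the caller marked 3 cells. Of 43 alternatives to the 7 ratios of immune to tumour clusters, 0 changed direction and 19 moved outside the reported interval. As a mean over cells the ratios were 1.45 for Ifngr1, 1.85 for Ifngr2, 4.21 for Jak1, 3.18 for Jak2, 6.86 for Irf1 and 9.31 for Socs1. Without mitochondrial and ribosomal protein genes they were 1.04, 1.35, 2.56, 1.53, 2.86 and 3.78 in that order. With clusters weighted alike they were 1.33 for Ifngr1, 3.62 for Jak1, 2.74 for Jak2, 5.38 for Irf1 and 6.93 for Socs1, and in cells with at least 1000 UMIs 3.02 for Irf1 and 4.07 for Socs1. For Ifng they stayed between 293 and 495. The share of Ifng in T cell clusters was 97.2% without cells of other clusters that held a Cd3 UMI. That alternative was chosen after seeing the data and could only raise the share. Under the other 3 the share was between 66.7 and 68.5%.

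Of 48 alternatives to counts past the fold, 43 stayed within 1.5 times. At 1.5-fold the genes higher were 4 of the 7 and 5 targets in T cell clusters, 5 of the 7 in macrophages and 2 targets in tumour clusters. With at least 200 UMIs in the cells compared, 9 targets were higher in MDSC_3. The share of all genes past these other rules was not counted. The 2-fold shares given above are no background for these counts. Depth limits levels that rest on few UMIs, such as Ifng in MDSC_3 on 2, Ifngr2 in CD4_T on 1 and Socs1 in Macrophage_4 on 3. With another constant added to CPM, 11 of 14 alternatives changed which genes were closest to a gene.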

Other observations

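In the IgG library the 7 genes were not analysed, but Zap70, a kinase of the T cell receptor, was among its complete genes. A Zap70 UMI was found in 41.6% of the Macrophage_2 cells of the IgG library (37 of 89 cells) and in 32.9% of those of the antibody library (52 of 158 cells). In Macrophage_1 the shares were 1.03 and 2.25%, and in the tumour clusters 0.206 and 0.311%. Barcodes of Macrophage_2 with T cell transcripts were thus present in both libraries. CD4_T, the cluster with the highest Ifng level, held 26 of 5765 IgG cells and 47 of 5482 antibody cells, a ratio of shares of 1.90 (1.15 to 3.20). For CD8_T_1 that ratio was 2.23 (1.75 to 2.87) for CD8_T_2 1.39 (1.06 to 1.83) and for CD3_T 3.30 (2.33 to 4.74). It was 1.93 for Macrophage_1, 1.87 for Macrophage_2, 0.920 for Macrophage_3, 1.28 for Macrophage_4 and 0.774 for the tumour clusters. These shares follow the mixing of enriched and unsorted cells, and with 1 library per group they have no replicate check.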
